A study of Homo sapiens with 4 samples.

Results

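The genes described here belong to cellular cholesterol and fatty acid metabolism: 18 act in sterol synthesis or its control, and 16 are controlled by the liver X receptors (LXR) or act in related fatty acid pathways. They were listed by pathway rather than by a threshold on their values, but with earlier results of these data known. Counts of members set beside all genes below are therefore a description and not a test. The genes were looked up among the probe sets of the array. Of the 34, 31 had a probe set annotated to that gene alone, out of 19775 genes with such a probe set on the array. A probe set is a group of short probes that together read part of a transcript. Gene values are those of the probe set with the highest average level, and the other probe sets of a gene are given as a range. The filter on low values kept a gene if any of its arrays reached 6.19 log2, the median of all values. This held for 29 members, 16 of sterol synthesis and 13 of the LXR and lipid list, and for 13410 genes in all.

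The cells were THP-1, an established human line from an acute monocytic leukaemia, and total RNA from 4 conditions was read on 1 Affymetrix array each. In the first, cells treated with Pam3CSK4 were kept with platelet-like particles for 12 h, and in the next for 24 h. Another held cells given Pam3CSK4 without particles, and the last held resting cells that had received neither. Pam3CSK4 is a laboratory-made lipopeptide sensed at the cell surface by TLR2 together with TLR1. All conditions share the same cell line, and no genotype or other treatment is named. The cells that gave rise to the particles, the length of Pam3CSK4 treatment on the array without particles, and whether particles were removed before RNA isolation are not given in the sources used here. The titles of the co-culture arrays carry the numbers 13 and 25, while their descriptions state 12 h and 24 h, which were used. With 1 array a condition there is no spread between cultures, no test was possible, and every difference below is a description of these arrays.

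Cells make cholesterol from acetyl-CoA through mevalonate, isoprenoids and squalene. When sterol in the endoplasmic reticulum runs low, the transcription factor encoded by SREBF2 is cut free and switches on the enzymes of this route, and INSIG1 holds it back when sterol is plentiful. LXRs are nuclear receptors that sense oxidised sterols and pair with RXR to switch on genes of cholesterol export and of fatty acid synthesis, and in macrophages both arms set how much lipid a cell stores.

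The regulatory sequences before a few members are shown because the genes were chosen as targets of these factors. RefSeq promoter windows (GRCh38.p14, 250 bases before to 50 after each start) were found for 29 of the 34 genes, 15 of sterol synthesis and 14 of the LXR and lipid list. The ABCA1 stretch (chr9:104928156-104928405, minus strand) has in capitals its match to a pair of GGTNA with 5 bases between them, which is a direct repeat of hexamers with 4 spacer bases, the kind bound by LXR with RXR. That match is on the opposite strand, and its first base lies at -69 from the start. In SREBF2 (chr22:41832855-41833104, plus strand) and FDPS (chr1:155308616-155308865, plus strand) the capitals mark matches to TCACNCNAC, a form of the sterol regulatory element, and to CCAAT on either strand, the box bound by NF-Y. In NSDHL (chrX:152830813-152831062, plus strand) they mark CCAAT on either strand, and a pair of these matches on opposite strands overlap. Each is written 5′ to 3′ on the strand of its gene and ends at the base before the start.
ABCA1: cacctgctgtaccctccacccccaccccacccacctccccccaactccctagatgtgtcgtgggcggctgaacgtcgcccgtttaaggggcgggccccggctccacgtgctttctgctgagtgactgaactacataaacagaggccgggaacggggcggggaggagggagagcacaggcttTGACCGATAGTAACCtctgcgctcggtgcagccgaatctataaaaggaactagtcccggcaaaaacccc
SREBF2: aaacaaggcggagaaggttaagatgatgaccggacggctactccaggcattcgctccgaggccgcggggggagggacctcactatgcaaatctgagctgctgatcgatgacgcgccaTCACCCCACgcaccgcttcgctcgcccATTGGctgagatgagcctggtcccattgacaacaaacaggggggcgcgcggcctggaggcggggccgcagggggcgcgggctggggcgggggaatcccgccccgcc
FDPS: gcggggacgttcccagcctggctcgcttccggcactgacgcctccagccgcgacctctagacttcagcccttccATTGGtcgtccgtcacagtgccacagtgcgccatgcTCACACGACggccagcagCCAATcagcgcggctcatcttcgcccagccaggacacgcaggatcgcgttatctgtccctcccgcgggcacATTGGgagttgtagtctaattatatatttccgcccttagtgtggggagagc
NSDHL: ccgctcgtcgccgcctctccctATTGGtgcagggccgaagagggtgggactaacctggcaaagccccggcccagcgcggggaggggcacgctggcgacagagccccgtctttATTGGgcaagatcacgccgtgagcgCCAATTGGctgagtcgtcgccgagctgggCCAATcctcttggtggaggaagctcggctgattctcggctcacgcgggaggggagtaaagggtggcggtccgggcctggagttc

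CCAAT was found on either strand in 16 of the 20 windows of sterol synthesis genes, against 34.6% of all 35116 windows in the table. In the LXR and lipid list it was found in 8 of 26 windows. Windows of genes with several starts partly overlap, so they are not independent. TCACNCNAC, also searched on both strands, was in 2 sterol synthesis windows (SREBF2 and FDPS), in 2 LXR and lipid windows (FADS2 and ANGPTL4), and in 2.55% of all windows. The spaced GGTNA repeat, searched on both strands, was in 1 window of ABCA1 and 1 of HMGCS1, and in 0.626% of all windows. The palindrome CACGTG, the E-box, was in 4 of 20 and 2 of 26 windows, against 7.26% of all. None of the motifs contains another, a match is no proof of a binding site, and a window without one says only that these letters are absent from it.

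The comparison of the 12 h array with Pam3CSK4 alone sets co-culture with particles against the ligand without them. The length of Pam3CSK4 treatment without particles is not given, so particles and time under the ligand cannot be told apart. The LXR and lipid genes were lower throughout: all 13 that passed the filter stood below their Pam3CSK4 value, by a median of -0.48 log2, where the median over all 13410 genes was -0.05. Of all genes, 58.7% were below 0. By size, 5 of the 13 were at least 1.5-fold lower, against 2.86% of all genes, and 0 were at least 2-fold lower, against 0.350%. The sterol synthesis genes stood closer to their Pam3CSK4 values, with a median of -0.15, 14 of 16 below 0, 2 at least 1.5-fold lower and 1 at least 2-fold lower. After a further scaling of the arrays by cyclic loess, 10 of 16 were below 0, with a median of -0.08. With the filter raised to the 75th percentile of all values, the sterol synthesis median was -0.13 over 15 genes. The median over all genes was then -0.09. In a bulk sample, fewer cells of a type and less RNA per cell cannot be told apart.

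NR1H3, which encodes LXR alpha, read 7.59 log2 at 12 h and 8.26 at 24 h with the particles, against 8.21 with Pam3CSK4 alone and 8.52 in resting cells. The 12 h array was the low one, and the 24 h array was level with Pam3CSK4. The 12 h difference of -0.62, or 1.54-fold, comes from the single probe set of that gene. PPARG, the nuclear receptor that drives lipid storage in macrophages, had the same order of arrays: 7.32 at 12 h, 7.89 at 24 h, 7.80 with Pam3CSK4 and 8.24 in resting cells. Its 12 h difference was -0.48, also on 1 probe set.

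ABCA1, the pump that hands cholesterol and phospholipid to apolipoprotein acceptors, and whose promoter stretch above holds the direct repeat, read 9.39 at 12 h, 10.21 at 24 h, 10.03 with Pam3CSK4 and 9.66 in resting cells. It was lowest at 12 h and highest at 24 h. The 12 h difference was -0.64 on this probe set and -0.88 on its other probe set above the filter. MYLIP, a ubiquitin ligase that marks lipoprotein receptors for degradation, read 7.88 at 12 h, 8.55 at 24 h, 8.70 with Pam3CSK4 and 9.15 in resting cells. Each treated array was thus lower than resting, and the 12 h array was the lowest. The 12 h difference was -0.82 on the probe set used here and ran up to 0.22, with 4 of 5 probe sets below 0. A further probe set passed the filter through the resting array alone and is left out of that range. PLTP, which moves phospholipid between lipoproteins, stood at 6.95, 7.23, 7.29 and 8.03 on the 12 h, 24 h, Pam3CSK4 and resting arrays. Its gap lay mainly between resting cells and all others.

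ABCG1, an exporter of cholesterol to lipoprotein particles, did not reach the filter on any array (5.94 at 12 h, 5.68 at 24 h, 5.74 with Pam3CSK4, 5.90 in resting cells), nor did any of its other 3 probe sets. Signal over background was not established for it, and no difference is drawn from it. ELOVL6, which lengthens saturated fatty acids, was also under the filter, between 3.62 and 3.78 on the 4 arrays.

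The fatty acid branch was lower at 12 h in the same way. SREBF1, whose product drives fatty acid synthesis and is itself an LXR target, read 8.09 at 12 h, 8.48 at 24 h, 8.73 with Pam3CSK4 and 8.86 in resting cells. From low to high the arrays ran 12 h, 24 h, Pam3CSK4 and resting on this probe set. Its second probe set differed by only -0.03 at 12 h, against -0.63 for the first, and did not share that order. The second read 6.94 at 12 h, 6.70 at 24 h, 6.96 with Pam3CSK4 and 6.74 in resting cells. SCD, which puts the double bond into stearate and palmitate, read 9.50, 10.02, 10.22 and 10.70 on those 4 arrays in that order. Its 12 h difference was -0.72, and its 4 probe sets ran from -0.72 to -0.23. FADS2, a desaturase of polyunsaturated fatty acids, read 7.69 at 12 h, 7.96 at 24 h, 8.26 with Pam3CSK4 and 8.39 in resting cells, which gave a 12 h difference of -0.57 and -0.37 on its other probe set. LPCAT3, which loads polyunsaturated chains into phospholipids, read 6.54 at 12 h, 7.09 at 24 h, 7.02 with Pam3CSK4 and 7.35 in resting cells. Its probe sets disagreed in sign, at -0.47 and 0.15.

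FASN, the fatty acid synthase, read 9.35 at 12 h, 9.44 at 24 h, 9.74 with Pam3CSK4 and 10.28 in resting cells. ACACA, which supplies its malonyl-CoA, read 9.88, 9.89, 10.11 and 10.37 on those arrays. On these probe sets the co-culture arrays were nearly level and below the others, with 12 h differences of -0.38 and -0.23. The other probe sets did not share that order: that of ACACA read 7.46, 7.96, 7.82 and 7.96, with 12 h lowest and 24 h above Pam3CSK4, and that of FASN was highest at 24 h, at 7.07. The genes of the list nearest to 0 at 12 h were CPT1A, which admits long-chain fatty acids to mitochondria for oxidation, at -0.14, and ANGPTL4, a PPAR target that inhibits lipoprotein lipase, at -0.06. ANGPTL4 read 6.68 at 12 h, 6.45 at 24 h, 6.73 with Pam3CSK4 and 6.86 in resting cells, and was lowest at 24 h. FADS1, the partner desaturase of FADS2, is read by 3 probe sets annotated jointly to FADS1 and MIR1908, and it is counted in no total. Those joint probe sets differed by -0.90, -0.70 and -0.40 at 12 h.

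**Figure D1:**
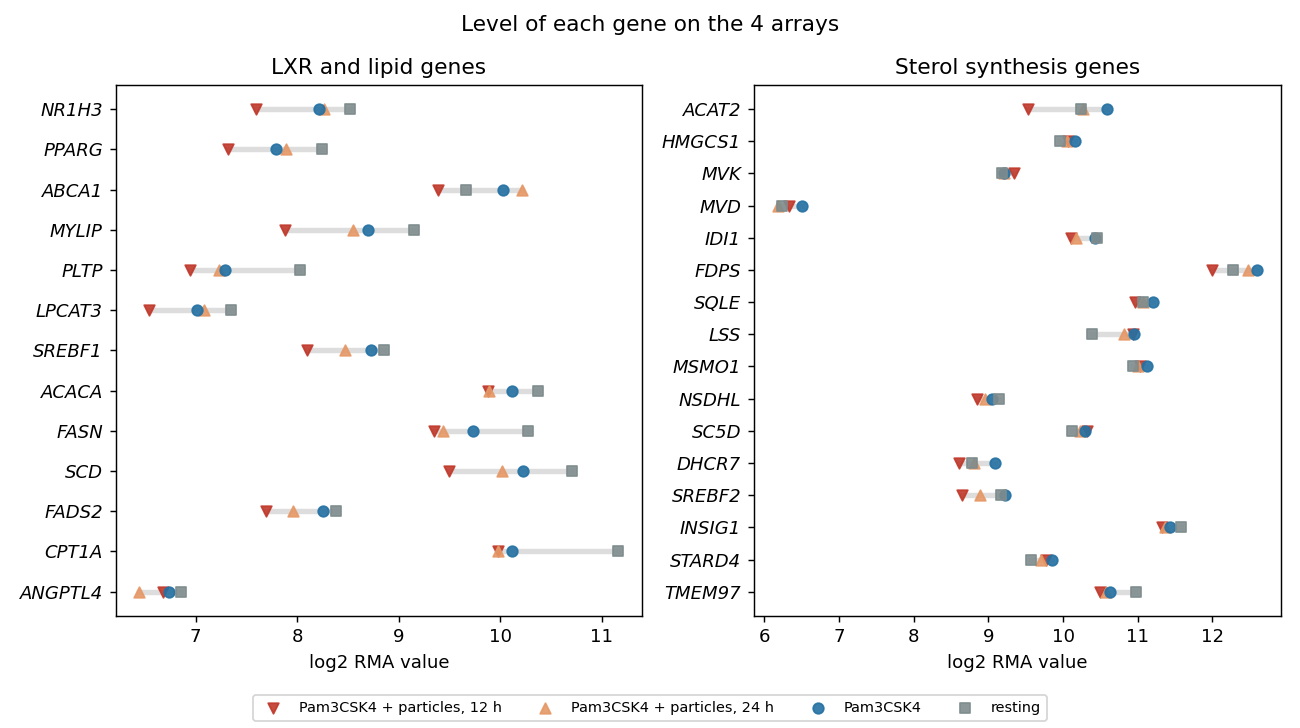
Log2 RMA value (x axis) of each gene that passed the filter on the 4 arrays, 1 symbol an array, with the 13 LXR and lipid genes on the left and the 16 sterol synthesis genes on the right. The grey bar joins the lowest and highest array. The 12 h symbol is the leftmost for 12 of the 13 genes on the left and for 9 of the 16 on the right.

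The level plot shows how far the lists differed in their lowest array. The 12 h array held the lowest of the 4 values for 12 of 13 LXR and lipid genes, all but ANGPTL4, and for 9 of 16 sterol synthesis genes, against 41.3% of all genes that passed the filter. This count was chosen after the values were seen. After a further scaling of the arrays by cyclic loess it was 9 of 13 and 5 of 16. The counts of genes at least 1.5-fold lower at 12 h were also dependent on the setting: with cyclic loess they were 2 of 13 and 1 of 16, and with a gene's probe sets averaged they were 1 of 13 and 2 of 16. The median of the LXR and lipid list at 12 h lay between -0.57, with a filter at the 75th percentile, and -0.34, with probe sets averaged, over the settings tried.

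Among the sterol synthesis genes at 12 h, ACAT2 had the largest difference. It encodes the cytosolic thiolase that joins acetyl-CoA units at the entry of the route, and it read 9.53 at 12 h, 10.27 at 24 h, 10.59 with Pam3CSK4 and 10.25 in resting cells. The 12 h array stood apart below the other arrays. The difference of -1.06, or 2.09-fold lower, was -0.96 and so under 2-fold with cyclic loess, and the gene has 1 probe set, of the _s_at type that can bind related transcripts. FDPS, the farnesyl diphosphate synthase whose promoter stretch is printed above, read 11.99 at 12 h, 12.47 at 24 h, 12.59 with Pam3CSK4 and 12.27 in resting cells. It was lower at 12 h by -0.60, again on 1 probe set.

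SREBF2, the transcription factor gene of the pathway, read 8.65 at 12 h, 8.90 at 24 h, 9.23 with Pam3CSK4 and 9.18 in resting cells. On this probe set both co-culture arrays lay below both arrays without particles. The other probe sets did not share that order, with the resting array lowest in the first, at 8.11, and the 12 h array highest in the second, at 8.66. The 12 h difference of SREBF2 was -0.57 on the probe set used, but its 3 probe sets ran from -0.57 to 0.30, and their mean gave -0.18. DHCR7, the reductase of the last step, read 8.61 at 12 h, 8.81 at 24 h, 9.08 with Pam3CSK4 and 8.78 in resting cells, with 12 h differences of -0.47 and -0.32 on its 2 probe sets. IDI1, the isopentenyl diphosphate isomerase, read 10.10 at 12 h, 10.17 at 24 h, 10.42 with Pam3CSK4 and 10.45 in resting cells. On this probe set the co-culture arrays lay below the others, and the 12 h difference was -0.32. The 3 probe sets of IDI1 above the filter ran from -0.32 to -0.01.

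The remaining enzymes stayed within 1.2-fold of Pam3CSK4 at 12 h. At the entry of the route, HMGCS1, the HMG-CoA synthase, read 10.06 on both the 12 h and 24 h arrays, 10.16 with Pam3CSK4 and 9.96 in resting cells. Its second probe set passed the filter through the Pam3CSK4 array alone, and nothing is drawn from it. MVK, the mevalonate kinase, read 9.35, 9.22, 9.21 and 9.18 on the 12 h, 24 h, Pam3CSK4 and resting arrays, and MVD, the mevalonate diphosphate decarboxylase, read 6.34, 6.18, 6.50 and 6.24. MVK was the only sterol synthesis gene highest at 12 h apart from SC5D, while MVD, close to the filter level, was lowest at 24 h.

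Further down the route, SQLE, the squalene epoxidase, read 10.96 at 12 h, 11.06 at 24 h, 11.20 with Pam3CSK4 and 11.07 in resting cells. Its 3 probe sets above the filter ran from -0.24 to 0.17 at 12 h, so they share no sign. LSS, which closes the sterol ring, read 10.94 at 12 h, 10.82 at 24 h, 10.96 with Pam3CSK4 and 10.39 in resting cells, and MSMO1, a methylsterol oxidase, read 11.03, 11.01, 11.12 and 10.94. In both, resting cells were lowest and the treated arrays lay close together. NSDHL, which helps remove methyl groups from the ring and has several CCAAT boxes in the stretch printed above, read 8.85 at 12 h, 8.96 at 24 h, 9.05 with Pam3CSK4 and 9.14 in resting cells, and its other probe set differed by -0.51 at 12 h. SC5D, a sterol desaturase, read 10.32, 10.22, 10.30 and 10.11 on those arrays. Its treated arrays spanned 0.09 log2.

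INSIG1 read 11.32 at 12 h, 11.36 at 24 h, 11.43 with Pam3CSK4 and 11.58 in resting cells, a 12 h difference of -0.11. Its 3 probe sets ran from -0.32 to -0.11 in that comparison. STARD4, a sterol carrier gene, read 9.78 at 12 h, 9.71 at 24 h, 9.85 with Pam3CSK4 and 9.58 in resting cells. TMEM97, a sterol-regulated membrane protein gene, read 10.49, 10.57, 10.62 and 10.98, with the resting array above the treated ones on this probe set. The 4 probe sets of TMEM97 ran from -0.19 to 0.18 at 12 h, so they share no sign. That at 0.18 read 9.19 at 12 h and 9.14 in resting cells. HMGCS1, LSS, MSMO1 and STARD4 had small differences of the opposite sign with cyclic loess. FDFT1 was not analysed here. CYP51A1, the lanosterol demethylase, has only 2 probe sets, annotated jointly to LRRD1, which differed by -0.18 and -0.03 and are counted in no total.

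**Figure D2:**
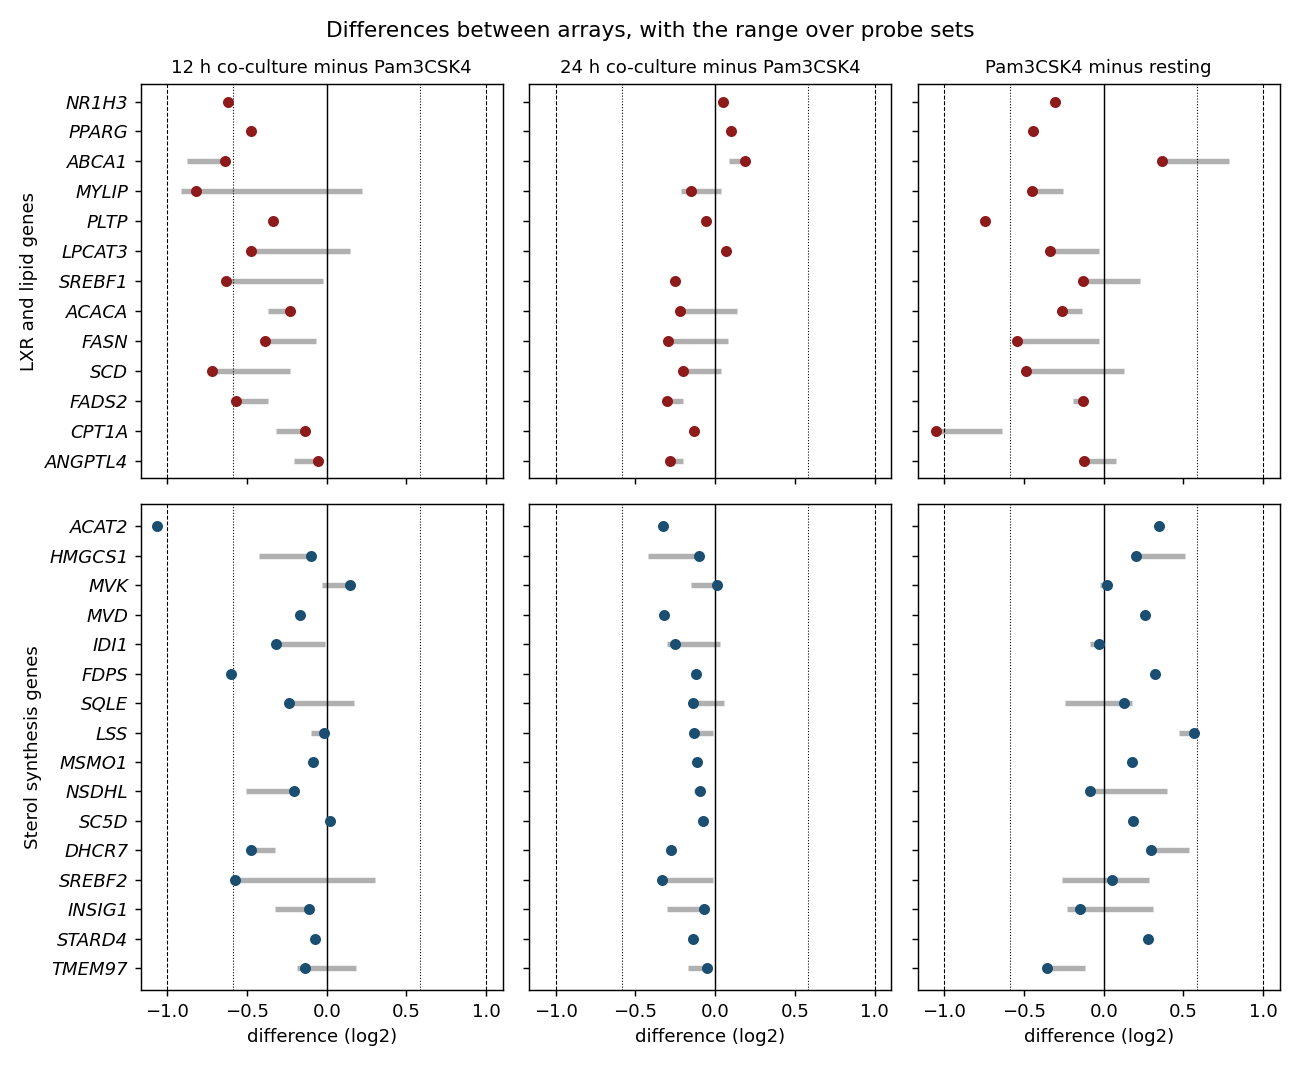
Difference in log2 value (x axis) between pairs of arrays for each gene that passed the filter, with LXR and lipid genes above and sterol synthesis genes below. Points are the probe set used, grey bars span all probe sets of the gene above the filter, dotted lines mark 1.5-fold and dashed lines 2-fold. All 13 LXR and lipid points lie left of 0 in the 12 h panel, and ACAT2 at 12 h and CPT1A with Pam3CSK4 are the points beyond 2-fold.

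Counted by probe set, 28 of the 30 above the filter for the LXR and lipid genes were below 0 at 12 h, and 28 of the 34 for sterol synthesis. Over all probe sets annotated to 1 gene, 56.9% were. The exceptions in the LXR and lipid list were 1 probe set each of MYLIP and LPCAT3. A probe set that passed through 1 array where it is high had to be lower on others, so these counts are a description only.

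Other values also differed between the arrays. RNA integrity was read from GAPDH as its 3′ control probe set minus its 5′ one. That gap was 0.92 log2 at 12 h, 0.70 at 24 h, 0.59 with Pam3CSK4 and 2.16 in resting cells, and the ACTB gap was 3.17, 2.90, 2.91 and 3.41 on the same arrays. Cell type markers are given for the genes of each list that had a value. Of 12 monocyte markers listed, 10 had a value, all above the filter, which describes their level and does not identify the line. Their summed log2 level was 104.0 at 12 h, 107.5 at 24 h, 107.2 with Pam3CSK4 and 99.2 in resting cells. Their median difference at 12 h was -0.18, with 7 of 10 below 0, against 58.7% of all genes. The differences ran from -1.18 for CD14 and -1.16 for MNDA up to 0.33 for CSF1R. Of 10 platelet markers, 4 or 5 were under the filter level on each array, and their summed level was 60.1 at 12 h, 58.9 at 24 h, 57.7 with Pam3CSK4 and 59.4 in resting cells. The platelet chemokine genes PPBP and PF4 were among those under it throughout. Of the 6 platelet markers that passed, 5 were above 0 at 12 h, against 5514 of all 13410 genes. Their median was 0.37, led by TREML1 at 0.54 and SELP at 0.51, and the median at 24 h was 0.13. TREML1 read 7.12 at 12 h and 7.25 in resting cells without particles. SELP read 6.57 at 12 h and 6.37 in resting cells, and was under the filter level with Pam3CSK4, at 6.06. The 3 T and B cell markers that passed were also all above 0 at 12 h, with a median of 0.235. Summed levels of 8 erythroid markers were 51.3, 50.6, 49.2 and 48.5, and of 4 T and B cell markers 25.1, 24.5, 24.4 and 24.4, on the 12 h, 24 h, Pam3CSK4 and resting arrays. Among the erythroid markers the embryonic globin gene HBE1 read 6.30, 7.50, 5.45 and 5.42 on those arrays, a difference from Pam3CSK4 of 0.85 at 12 h and 2.05 at 24 h against a level under the filter, while the median of the 4 that passed was 0.28 at 12 h and 0.02 at 24 h. The part of any of these in the differences was not tested.

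The comparison of the 24 h array with Pam3CSK4 describes the later time, and particles and time under the ligand cannot be told apart here either. The members stood near Pam3CSK4, as did nearly all genes. Of 29 members 0 differed by 1.5-fold in either direction. Over all genes 0.164% were higher by that much and 0.00746% lower, so the count of 0 is not particular to the members. The direction was mostly downward for sterol synthesis, with 15 of 16 below 0 and a median of -0.13, against 52.1% of all genes below 0 and a median of -0.01. This comparison subtracts the same Pam3CSK4 array as that of 12 h, so a high value there enters both, and they are not separate observations. Against resting cells that array was higher for 12 of the 16, with a median difference of 0.18 over all 16. For the LXR and lipid genes 9 of 13 were below 0, with a median of -0.15. Those above 0 were ABCA1 at 0.18, PPARG at 0.10, LPCAT3 at 0.07 and NR1H3 at 0.05. The lowest sterol synthesis values at 24 h were SREBF2 at -0.33, ACAT2 and MVD at -0.32 each, and DHCR7 at -0.28. The other probe sets of SREBF2 stood at -0.20 and -0.01, that of DHCR7 stood at -0.26, and MVD at 24 h was just under the filter level. In the LXR and lipid list the lowest were FASN and FADS2 at -0.30 each and ANGPTL4 at -0.29. The other probe set of FASN stood at 0.08, and those of FADS2 and ANGPTL4 at -0.20 each. By probe set, 31 of 34 of sterol synthesis and 20 of 30 of the LXR and lipid genes were below 0 at 24 h, against 51.2% of all probe sets, with the same limit on these counts as at 12 h. For scale, the SD between the probe sets of a gene had a median of 0.09 log2 in this comparison over 6187 genes, and of 0.14 in that of 12 h with Pam3CSK4.

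Between the co-culture times, the LXR and lipid genes were higher at 24 h than at 12 h. Of the 13, 1 was below 0, against 42.1% of all genes, and the median was 0.38, against 0.04 over all genes. At least 1.5-fold higher were ABCA1 at 0.82, MYLIP at 0.67 and NR1H3 at 0.67, that is 3 of 13, against 3.14% of all genes. PPARG at 0.57, LPCAT3 at 0.54 and SCD at 0.52 followed. The other probe set of LPCAT3 stood at -0.09 and those of SCD ran down to 0.03, and with probe sets averaged LPCAT3 stood at 0.23 and SCD at 0.24. ACACA at 0.01, CPT1A at 0.00 and FASN at 0.09 were nearly level between the times and turned slightly negative with cyclic loess, but the other probe set of ACACA stood at 0.50 and its average at 0.26. ANGPTL4 stood at -0.23. Without probe sets of the _x_at and _s_at types MYLIP stood at -0.18. In sterol synthesis ACAT2 was 1.67-fold higher at 24 h and FDPS stood at 0.48, but the median was 0.05 and turned to -0.04 with cyclic loess. This comparison shares the 12 h array with that of 12 h against Pam3CSK4, so a low 12 h value enters both. For the joint probe sets of FADS1 and MIR1908 the 24 h value was higher than the 12 h value by 0.56, 0.42 and 0.16.

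The comparison of Pam3CSK4 with resting cells sets cells given the receptor ligand without particles against cells given neither. The length of treatment is not given, so ligand and time in culture cannot be told apart. It shares the Pam3CSK4 array with the particle comparisons, so a high value there raises this difference and lowers those. Here the lists lay on opposite sides of 0. The LXR and lipid genes had a median of -0.33, with 12 of 13 below 0, and the sterol synthesis genes a median of 0.18, with 12 of 16 above 0. The median over all genes was -0.05 and 57.7% of all were below 0. At least 2-fold lower was 1 of 13 LXR and lipid genes, against 1.71% of all genes, and at least 1.5-fold lower were 2 of 13, against 5.89%. None of the 16 sterol synthesis genes reached 1.5-fold, which 7.58% of all genes did upward.

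CPT1A read 10.11 with Pam3CSK4, against 11.16 in resting cells, a difference of -1.05 or 2.07-fold lower. The particle arrays stood close to Pam3CSK4, at 9.98 each. Its other probe set above the filter on both arrays differed by -0.64, and a further one passed through the resting array alone. The mean of its probe sets was -0.68. PLTP differed by -0.74, FASN by -0.54, SCD by -0.48, MYLIP and PPARG by -0.45 each, LPCAT3 by -0.33 and NR1H3 by -0.30. FASN ranged to -0.03 and SCD to 0.13 on other probe sets, while the probe sets of MYLIP were all below 0, 1 of them having passed the filter through the resting array alone. ABCA1 was the exception in its list, at 10.03 with Pam3CSK4 and 9.66 in resting cells, a difference of 0.37 and 0.78 on its other probe set above the filter.

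Among sterol synthesis genes the leading positive difference was that of LSS, at 10.96 with Pam3CSK4 and 10.39 in resting cells. The 3 probe sets of LSS gave 0.47 to 0.56. ACAT2 stood at 0.35, FDPS at 0.32, DHCR7 at 0.30 with 0.53 on its other probe set, STARD4 at 0.28, MVD at 0.26, HMGCS1 at 0.20 and SC5D at 0.19. The regulators stood on either side of 0, with SREBF2 at 0.05 and INSIG1 at -0.15, each with probe sets of both signs. TMEM97 was lowest at -0.36, with all 4 probe sets below 0. The resting array carried the widest GAPDH control gap, given above, and the part of RNA integrity in these differences was not tested.

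**Figure D3:**
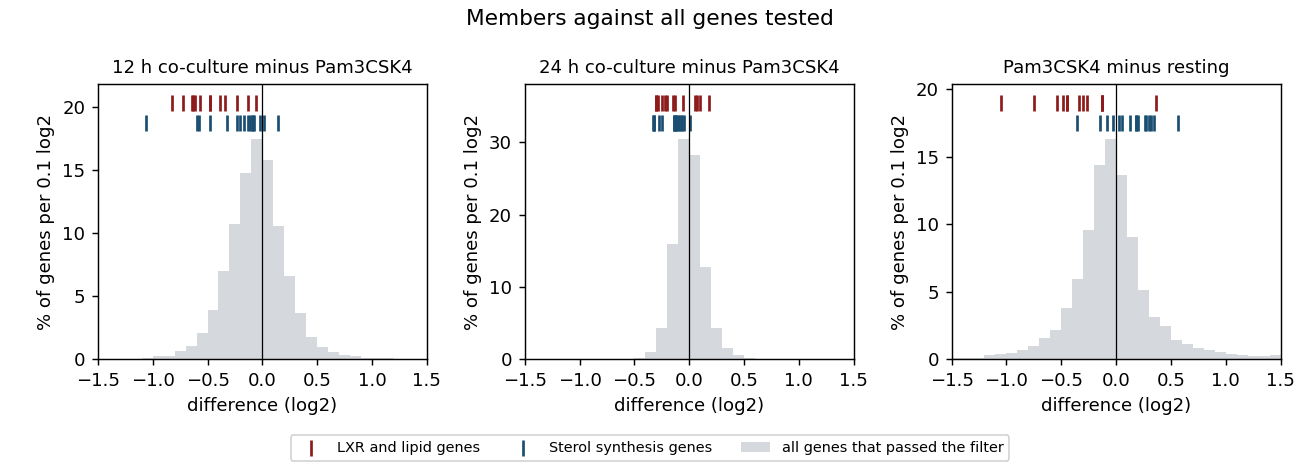
Share of all 13410 genes (y axis, per 0.1 log2) by their difference between arrays (x axis, log2, shown from -1.5 to 1.5), with ticks for each LXR and lipid gene (upper row) and each sterol synthesis gene (lower row). The upper ticks lie left of 0 at 12 h (median -0.48), spread around -0.15 at 24 h, and lie mostly left of 0 with Pam3CSK4, where the lower ticks have a median of 0.18.

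Related genes outside the 34 were described from lists by pathway. Of 17 further sterol genes 14 passed the filter. Their median was -0.14 at 12 h with 10 of 14 below 0, against 58.7% of all genes, and 2 at least 1.5-fold lower, against 2.86%. It was -0.07 at 24 h and -0.09 with Pam3CSK4. The 2 were ERLIN1, which encodes an endoplasmic reticulum protein that restrains the sterol-regulated factors, and SCARB1, a lipoprotein receptor gene. ERLIN1 read 9.31 at 12 h, 9.80 at 24 h, 10.01 with Pam3CSK4 and 10.96 in resting cells, and SCARB1 read 9.75, 10.19, 10.37 and 10.70. In both the 12 h array was lowest and the resting array highest. CH25H, which makes an LXR-activating oxysterol, was under the filter on all arrays, between 3.76 and 4.22.

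Of 20 further LXR, PPAR and fatty acid genes 13 passed, with a median of -0.04 at 12 h, 0.03 at 24 h and -0.08 with Pam3CSK4. With Pam3CSK4, 3 of 13 were at least 2-fold higher, against 4.14% of all genes. The fatty acid and lipoprotein scavenger receptor gene CD36 read 10.89, against 8.33 in resting cells. SMPDL3A, an LXR-responsive phosphodiesterase gene, read 9.38, against 7.75 in resting cells, and the acyl-CoA synthetase gene ACSL1 read 11.09, against 9.48. Only SMPDL3A of these 3 was then at least 1.5-fold lower at 12 h, at 8.60, and it stood at 9.37 at 24 h. PLIN2, which coats lipid droplets, was highest at 12 h and lowest in resting cells, at 11.22 at 12 h, 11.05 at 24 h, 10.68 with Pam3CSK4 and 10.34 in resting cells. APOC1, an apolipoprotein gene controlled by LXR in macrophages, read 11.39 at 12 h, 12.28 at 24 h, 11.65 with Pam3CSK4 and 12.00 in resting cells.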

How the data were processed

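Total RNA of THP-1 cells was read on 4 arrays, each placed in its condition by its source label. The deposited log2 values of 54675 probe sets were made by the authors with RMA in affy 1.28.1, per the submitters' processing notes. RMA corrects background, gives all arrays nearly the same distribution (sorted columns differed by at most 0.11) and summarises probes, so a global change in RNA cannot be seen and low values are compressed. Genes were named from the platform annotation. Of 41097 probe sets with 1 gene, control probe sets included, 41043 had their identifier in RefSeq, which updated 0 symbols; 1801 probe sets naming several genes were set aside.

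Each difference is that of 2 log2 values, called at 2-fold, with 1.5-fold counts beside it. All members were named, with values on every array for those at least 2-fold different, the 4 leading in each direction and the regulators, and added for the other members. Of related genes, those at least 2-fold different were named by rule; SCARB1, ERLIN1, CH25H, PLIN2 and APOC1 were chosen after their values were seen. Members and lists were chosen with earlier results of these data known. As alternatives, the filter was dropped or raised to the 75th percentile (8.01), probe sets were averaged, those ending in _x_at or _s_at were omitted, thresholds of 1.5-fold and 3-fold were used, and cyclic loess was added with limma 3.58.1 (3 iterations, R 4.3.3). Python 3.11.15, numpy 2.4.6, pandas 2.3.3 and matplotlib 3.10.9 were used. The counting was tested on simulated arrays with upward shifts only, which checks the arithmetic and says nothing of the calls on the real arrays. The number of arrays limits the precision.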

Additional observations from a re-analysis of the deposited data

Results flagged for a closer look

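For 5 members the 12 h and 24 h co-culture arrays stood on opposite sides of the Pam3CSK4 array they share, with 1 array at each time, and the difference between the times was not tested. ABCA1 stood at -0.64 at 12 h and 0.18 at 24 h, 0.82 apart. NR1H3 stood at -0.62 and 0.05, 0.67 apart, PPARG at -0.48 and 0.10, 0.57 apart, and LPCAT3 at -0.47 and 0.07, 0.54 apart. The LPCAT3 result rests on 1 of its 2 probe sets, since the other stood at 0.15 and 0.06, on the same side of Pam3CSK4. NR1H3 and PPARG have 1 probe set each. SC5D ran the other way by little, at 0.02 and -0.08, a difference of -0.093. No condition had enough arrays to look for a sample far from the others.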

How the results depend on the processing

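A value was taken to have moved where it shifted by more than the median SD between the probe sets of a gene in that comparison, and a count where it shifted by over 1.5 times. Of 316 values of single members under averaged probe sets, omission of _x_at and _s_at probe sets or cyclic loess, 278 stayed within that spread and 38 moved. Part of the 278 could not move. Averaging leaves a member with 1 probe set unchanged, and omission leaves unchanged a member whose probe set used is of neither type. The 278 are therefore no measure of how stable the values are. With no filter or with the 75th percentile filter, no list median moved, and neither did a count of genes 2-fold different or lowest at 12 h. With averaged probe sets the LXR and lipid median at 12 h was -0.34, 0 genes of that list were 2-fold different with Pam3CSK4, and 5 sterol synthesis genes were lowest at 12 h. Without _x_at and _s_at probe sets, which left 11 and 8 genes, 0 sterol synthesis genes were 2-fold different at 12 h, 5 sterol synthesis and 7 LXR and lipid genes were lowest at 12 h, and the LXR and lipid median at 24 h was -0.047. With cyclic loess 0 sterol synthesis genes were 2-fold different and 5 lowest at 12 h. At 1.5-fold the counts were 2 sterol synthesis and 5 LXR and lipid genes at 12 h, 1 and 3 between 24 h and 12 h, and 2 LXR and lipid genes with Pam3CSK4; at 3-fold they were 0 at 12 h for sterol synthesis and 0 with Pam3CSK4 for the LXR and lipid genes. The sterol synthesis median between 24 h and 12 h was 0.05, but -0.01 with averaged probe sets, -0.0039 without _x_at and _s_at probe sets and -0.04 with cyclic loess. Apart from fewer genes being counted where probe sets were omitted, the cause of these shifts was not tested. Cyclic loess took the median of all genes at 12 h to -0.0051. No paired analysis was possible because each condition has 1 array. Signal over background was judged by level only.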
